A study of Mus musculus with 20 samples.

Results

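Liver RNA from obese mice that received both a PPARγ knockdown vector and the drug benzbromarone (shRNA+BBR) was compared with liver RNA from obese mice that received neither (Vec). The comparison takes the 5 libraries labelled PPAR knockdown + benzbromarone and the 5 labelled control, which are 10 of the 20 in the series, and it covers all genes. It asks which genes stood at the control level when both interventions were applied together and which stayed changed. All mice were male Lepr db/db mice, which carry a mutated leptin receptor gene and develop obesity and fatty liver. At 5 weeks of age each was injected in the tail vein with an adeno-associated virus (AAV8), whose insert was a non-targeting shRNA (Vec) or 4 shRNAs against mouse Pparg (shRNA). Benzbromarone (BBR) was given by daily gavage at 25 mg/kg for 4 weeks, and the Vec mice received the vehicle alone. The remaining groups of 5 mice each, Vec+BBR and shRNA, show each intervention by itself. The shRNA+BBR and Vec groups differ in both the vector insert and the drug, so a difference between them cannot be assigned to either, and a systemic vector can reach cells other than hepatocytes. Each library came from 1 mouse, and p-values measure the spread between mice.

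PPARγ is a nuclear receptor that binds DNA with RXR as its partner and switches on genes of fatty acid uptake and triglyceride storage. It is most abundant in adipose tissue, and in fatty liver it also drives lipid droplet genes such as Cidea and Cidec. Benzbromarone lowers blood urate by blocking urate reabsorption in the kidney, and liver injury limits its use.

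The 21-base sites matched by the 4 shRNA sequences of the study are shown because they define the knockdown arm. Capitals mark the site and lower case marks 10 bases of Pparg mRNA on either side, read from GENCODE M21 transcript Pparg-201 on the plus strand of GRCm38 (mm10). All 4 lie in coding sequence.
shRNA1: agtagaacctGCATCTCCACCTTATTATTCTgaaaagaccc
shRNA2: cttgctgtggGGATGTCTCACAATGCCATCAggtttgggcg
shRNA3: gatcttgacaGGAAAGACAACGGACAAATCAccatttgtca
shRNA4: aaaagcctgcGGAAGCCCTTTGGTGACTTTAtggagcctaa
The shRNA1 site is in exon 3 (chr6:115441512-115441532) and occurs in 5 of 5 coding Pparg transcripts. The shRNA2 site crosses the junction of exons 4 and 5, between chr6:115451068 and chr6:115463091, and occurs in 4 of 5. The shRNA3 site is in exon 5 (chr6:115463265-115463285), the shRNA4 site is in exon 6 (chr6:115473195-115473215), and each occurs in 3 of 5. No transcript of another gene carried any of the sites within fewer than 3 mismatches. Of the 9 other genes with a site at 3 mismatches, 3 were expressed enough to test (D10Wsu102e, Kdm7a and Atl3) and 0 of these were called between shRNA+BBR and Vec (edgeR adjusted p of 0.144, 0.493 and 0.599).

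Levels are given as CPM, which are read counts brought to a common library size with edgeR's TMM factors, with the 5 mice of a group always listed in the order of their replicate numbers. Changes are log2 fold changes of shRNA+BBR over Vec, positive where shRNA+BBR was higher. A gene was called at an adjusted p under 0.05 in edgeR's quasi-likelihood test, adjusted by Benjamini-Hochberg over 12342 genes, and only called genes are said to have risen or fallen. Read totals were 17825543 to 21708075 in Vec and 19603870 to 25024094 in shRNA+BBR, at which 3 counts equal 0.121 to 0.193 CPM over the 20 libraries. All 10 hepatocyte markers were abundant, with a summed level of 126254 to 157521 CPM in Vec and 108374 to 125860 CPM in shRNA+BBR, ranges that did not overlap. Mitochondrial transcripts took 9.14 to 10.8% of reads in Vec and 10.2 to 16.2% in shRNA+BBR. On the first principal component of all 20 libraries (29.8% of the variance), Vec replicate 3 lay at 19.8, whereas the other Vec mice lay between −34.2 and 2.20 and the shRNA+BBR mice between −8.45 and 25. Vec replicate 3 carried high lipid storage transcripts, and the counts of gene lists that rest on it are given without it below. Counts of few genes often moved by more than 1.5 times when another single library was left out. In bulk liver, fewer cells of a type and less RNA per cell cannot be told apart.

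The targeted gene was lower than in Vec but was not reduced as far as by the vector alone. Pparg stood at 16.4, 20.1, 35.9, 19.4 and 32.1 CPM in Vec and at 11.4, 9.99, 21.8, 18.9 and 7.19 CPM in shRNA+BBR. The groups overlapped, because shRNA+BBR replicates 3 and 4 lay within the Vec range. Without the drug, the shRNA mice measured 7.31, 6.53, 5.96, 3.24 and 5.63 CPM, all below the lowest Vec mouse. Group means were 24.8 ± 8.63 CPM in Vec and 13.9 ± 6.22 CPM in shRNA+BBR (SD, n = 5 each). The fitted change was −0.84 (SE 0.26, interval −1.39 to −0.29), with adjusted p = 0.042 by edgeR's quasi-likelihood test. An exact two-sided permutation test of the CPM values over all assignments of the 10 mice gave p = 0.0635, where the smallest possible p was 0.00794. The edgeR call was lost when only the 10 compared libraries were fitted (adjusted p = 0.138). It was also lost when Vec replicate 3 (−0.66), Vec replicate 5 (−0.73), shRNA+BBR replicate 5 (−0.68), shRNA+BBR replicate 2 (−0.74), shRNA+BBR replicate 1 (−0.78) or Vec replicate 2 (−0.91) was left out, and when any of Vec+BBR replicates 2, 3 and 4 or shRNA replicate 3 was left out (−0.84 to −0.83). With the drug given to both arms the difference was larger. The Vec+BBR mice measured 28 to 38.3 CPM, all above the shRNA+BBR mice, for a change of −1.2 (edgeR adjusted p = 0.00843). Within the knockdown arm, Pparg was higher with the drug than without it by 1.28 (edgeR adjusted p = 0.00773).

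Some genes of lipid storage and uptake, Cidea, Mogat1 and Cd36 among them, rose under both interventions. Of 27 tested PPARγ target genes of fatty liver, 6 rose and 0 fell (3 lower at an unadjusted p under 0.05), with a median change of 0.48, beside 4.54% of all tested genes called higher, 7.49% called lower and a median over all genes of 0.00. The 6 were Cidea, Mogat1, Cd36, Fabp4, Lpl and Cfd. Without Vec replicate 3 the number called higher was 13. BBR alone raised 13 of the 27, of which 6 stayed higher in shRNA+BBR, 1 (Il1rn) was back at the Vec level and 6 met neither rule. Here a gene counts as back at the Vec level when it was not called against Vec and the 95% interval of its change lay within 1.5-fold either way.

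Cidea, a protein that promotes the growth of lipid droplets, was at 0.802, 0.9, 12, 0.101 and 4.14 CPM in Vec and at 11.7, 19.6, 33.8, 15.8 and 14.1 CPM in shRNA+BBR. Only Vec replicate 3 reached the shRNA+BBR range. The change was 2.38 (SE 0.60, edgeR adjusted p = 0.0129), against 3.63 with BBR alone and −2.76 with the knockdown alone. Mogat1, which makes diacylglycerol from monoacylglycerol, was at 5.91, 6.88, 23.8, 2.64 and 18.7 CPM in Vec and at 27.5, 26.3, 27.5, 27.4 and 21.7 CPM in shRNA+BBR. Its ranges touched only through Vec replicate 3 and shRNA+BBR replicate 5, and the change was 1.16 (SE 0.37, edgeR adjusted p = 0.0421). The Mogat1 call was lost when only the 10 libraries were fitted. It was also lost without any of Vec replicates 1 and 2, Vec+BBR replicates 3, 4 and 5 or shRNA+BBR replicates 1, 2, 3 and 4. Cidea and Mogat1 were thus lower than Vec under the knockdown alone and higher than Vec under both interventions.

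The fatty acid transporter Cd36 was at 186, 197, 258, 205 and 279 CPM in Vec and at 316, 303, 320, 311 and 318 CPM in shRNA+BBR. Each shRNA+BBR mouse exceeded every Vec mouse, and the spread within shRNA+BBR was small (313.6 ± 6.92 CPM against 225 ± 40.6 CPM, SD, n = 5 each). The rise was 0.48 (SE 0.10, edgeR adjusted p = 0.00394). Fabp4, a cytosolic fatty acid carrier, was at 8.17, 7.33, 13.0, 5.93 and 10.9 CPM in Vec and at 16.6, 12.6, 28.5, 21.5 and 14.4 CPM in shRNA+BBR, a rise of 1.04 in which only the highest Vec and lowest shRNA+BBR mice crossed. Lipoprotein lipase (Lpl) rose by 1.01. In the whole list of fatty acid uptake and activation 4 of 20 rose (Cd36, Fabp3, Fabp4 and Lpl) and 2 fell (Lipc and Slc27a5), with a median of 0.22 and with 8 higher without Vec replicate 3. In triglyceride synthesis 1 of 18 rose (Mogat1) and 1 fell, Aqp9, which carries glycerol (median −0.11), and without that mouse there were 2 higher and 3 lower. Cidec, another lipid droplet protein, did not pass the test. It was at 5.86, 5.59, 130, 6.95 and 34.1 CPM in Vec and at 40.9, 53.7, 77.9, 107 and 30.7 CPM in shRNA+BBR. The Vec mice spanned the whole shRNA+BBR range, and the change was 0.76 with an interval of −0.52 to 2.04.

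**Figure D1:**
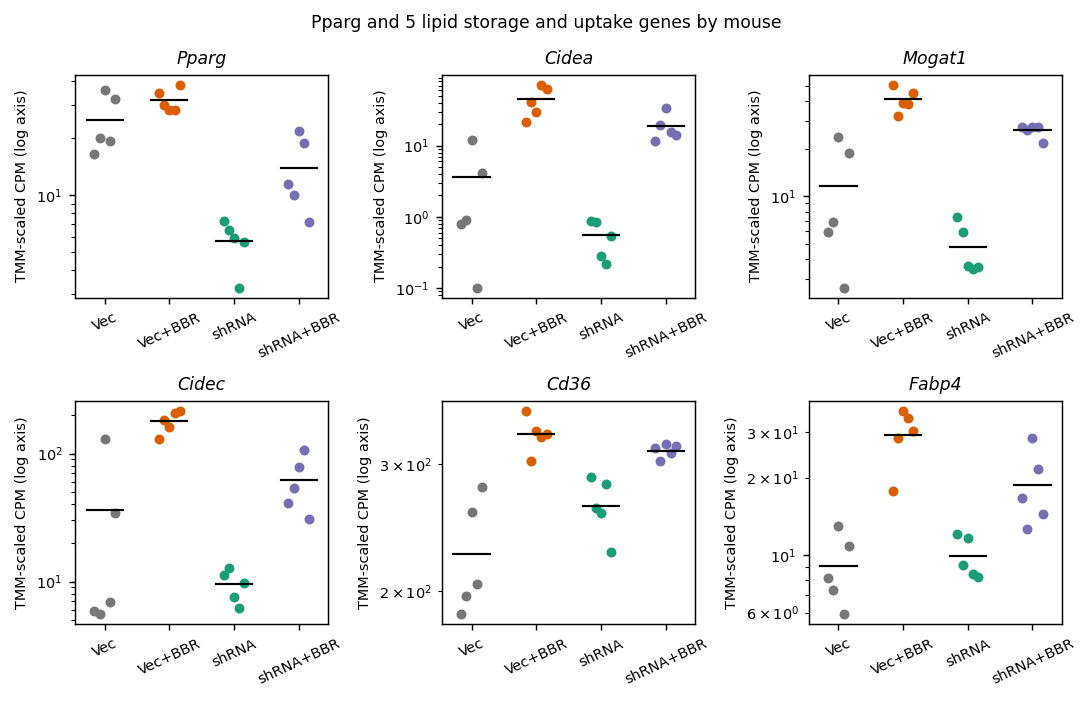
Level of Pparg and 5 lipid genes in each mouse (points) with the group mean (line), in TMM-scaled CPM on a log axis, for the 4 groups of 5 mice. The shRNA+BBR mice lay between 303 and 320 CPM for Cd36, all above the highest Vec mouse at 279 CPM, while for Cidec Vec replicate 3 at 130 CPM lay above all of them.

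Lipid droplet coat and storage genes divided: 3 of 20 rose and 2 fell (median 0.17), and without Vec replicate 3 there were 8 higher and 1 lower. Cidea, Plin5 and Hsd17b13 were the 3 that rose. Plin5, which couples droplets to mitochondria, was at 63.3, 56.5, 102, 84.0 and 77.2 CPM in Vec and at 132, 121, 108, 122 and 128 CPM in shRNA+BBR. The groups did not overlap, and the change of 0.67 (SE 0.15, edgeR adjusted p = 0.00635) stood beside 0.62 with the knockdown alone and −0.23 with BBR alone. Hsd17b13, a droplet-bound enzyme of hepatocytes, rose by 0.60, beside 0.98 with BBR alone. The lipase gene Lipe fell by 0.53 and Bscl2, which encodes the droplet assembly protein seipin, fell by 0.23.

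Fat oxidation genes of mitochondria were not called, and some peroxisomal genes fell. Of 21 mitochondrial β-oxidation genes, 0 were called in edgeR's test (median −0.02). At an unadjusted p under 0.05 there were 2 higher and 4 lower, DESeq2 called 1 of the 21 higher and 1 lower, and without Vec replicate 3 edgeR called 3 higher. In a list of peroxisomal oxidation and biogenesis, 10 of 36 fell, 2 rose and the others were not called (median −0.14). Without Vec replicate 3 there were 9 lower and 7 higher. Those that fell included catalase (Cat, −0.31) and the import factors Pex5, Pex6 and Pex14 (−0.29, −0.39 and −0.30). Abcd2, a fatty acid transporter, rose by 0.79. The number higher was 4 without Vec replicate 5 and in limma-voom, 1 without shRNA+BBR replicate 4 and 0 when only the 10 libraries were fitted. The number lower was 2 with those 10 libraries, 5 without Vec replicate 2, 4 without shRNA+BBR replicate 3 and 6 without shRNA+BBR replicate 4. Among 45 targets of the related receptor PPARα, which controls fat oxidation, 3 rose and 2 fell (median 0.04), and without Vec replicate 3 there were 12 higher and 1 lower. The study's own list of PPAR target genes had 3 higher (Cd36, Fabp4 and Mogat1) and 3 lower (Cyp27a1, Lipe and Acaa1a) of 46, and 12 higher without Vec replicate 3. As the study compiled it, this count is not independent evidence of a direction.

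Bile acid genes were lower than in Vec across synthesis, conjugation and transport. Of 27 tested, 11 fell and 0 rose (1 higher at an unadjusted p under 0.05), and the median change was −0.47. Cyp27a1 and Cyp7b1, enzymes of the alternative synthesis pathway, fell by 0.84 and 1.03. Cyp7b1 was at 24.6, 26.2, 13.2, 23.7 and 17.1 CPM in Vec and at 11.2, 10.7, 9.23, 7.67 and 12.3 CPM in shRNA+BBR, and the ranges did not overlap. Cyp7a1, the rate-limiting enzyme of the classical pathway, was at 64.5, 66.9, 19.3, 165 and 59.0 CPM in Vec and at 54.0, 31.7, 27.3, 10.1 and 62.9 CPM in shRNA+BBR. Its groups overlapped, and the change of −1.01 (interval −1.93 to −0.10) did not pass the test (edgeR adjusted p = 0.14).

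The bile salt export pump Abcb11 fell by 0.53, from 231 to 310 CPM in Vec to 174 to 225 CPM in shRNA+BBR without overlap. The uptake transporter Slc10a1 fell by 0.40, the conjugating enzyme Slc27a5 by 0.68 and the export pump Abcc3 by 0.55. The paired sterol exporters fell further, Abcg5 by 0.86 and Abcg8 by 1.12. Abcg8 was at 111, 109, 75.8, 126 and 75.5 CPM in Vec and at 44.3, 41.2, 37.7, 54.7 and 51.4 CPM in shRNA+BBR. Its lowest Vec mouse was above the highest shRNA+BBR mouse (SE 0.14, edgeR adjusted p = 0.000197), and the changes with each intervention alone were −0.32 (BBR) and −0.56 (knockdown). Of the 12 bile acid genes lower with BBR alone, 7 stayed lower.

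Few cholesterol synthesis genes were called. Of 25, 1 rose (Sqle, squalene epoxidase, by 1.44) and 0 fell, whereas BBR alone raised 6. Sqle was at 4.61, 5.08, 18.3, 3.19 and 6.26 CPM in Vec and at 24.5, 19.4, 11.9, 35.5 and 11.1 CPM in shRNA+BBR. Vec replicate 3 lay inside the shRNA+BBR range. Without that mouse 9 of the 25 were higher, and without Vec replicate 1, Vec replicate 2 or shRNA+BBR replicate 4 the number was 0. The lipogenic regulators Srebf1 and Mlxipl fell by 0.89 and 0.58, while the desaturase gene Fads1 rose by 0.89. Those were the 3 called genes of 26 in de novo lipogenesis (median 0.28), of which 7 were higher without Vec replicate 3. The number higher was 0, without Fads1, with the 10 libraries alone. It was also 0 when Vec replicate 1, 2 or 4 or shRNA+BBR replicate 1 or 4 was left out.

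Pericentral genes, expressed by the hepatocytes around the central vein, were lower. Of 20 tested, 10 fell and 1 rose (median −0.52). The number lower was 6 when only the 10 libraries were fitted. Cyp2e1, which oxidizes ethanol and other small molecules, was at 10070, 11953, 6760, 10792 and 7674 CPM in Vec and at 4817, 4245, 4665, 2797 and 4902 CPM in shRNA+BBR. No shRNA+BBR mouse reached the lowest Vec mouse, and the change was −1.14 (SE 0.18, edgeR adjusted p = 0.000439). Notum, which inactivates Wnt ligands, was at 27.8, 22.9, 15.3, 23.2 and 16.3 CPM in Vec and at 11.4, 10.8, 8.90, 9.63 and 8.95 CPM in shRNA+BBR, again without overlap (−1.08). Glutamine synthetase (Glul) fell by 0.48, the ammonia channel Rhbg by 0.90, the aminotransferase Oat by 1.07, the glutamate transporter Slc1a2 by 0.93 and the xenobiotic oxidase Cyp1a2 by 1.08. Rdh9 rose by 0.68. Each intervention alone also lowered many of them, 12 with BBR and 9 with the knockdown. For Notum the changes were −1.04 with BBR, −0.94 with the knockdown and −1.08 with both, all against the same Vec mice. Of the 12 lower with BBR, 10 stayed lower, and of the 9 lower with the knockdown, 5 stayed lower. Periportal genes had 3 of 20 lower and 1 higher (median −0.20), or 7 and 2 without Vec replicate 3, and none was lower without Vec replicate 2.

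Male-biased liver genes were also lower, with 21 of 45 falling and 1 rising (median −0.70). Of 41 female-biased genes 5 fell and 2 rose (median −0.27), a balance that did not hold without Vec replicate 4 (3 lower, 4 higher), in DESeq2 (5 and 5) or with a replicate block (4 and 4). Male-biased genes follow the pulsed pattern of growth hormone, and many Mup genes, which encode urinary pheromone carriers, belong to them. Mup12 was at 29.2, 23.8, 7.70, 6.39 and 13.1 CPM in Vec and at 3.39, 4.27, 1.89, 2.65 and 2.49 CPM in shRNA+BBR. The groups did not overlap, although Vec mice differed among themselves (SD 10.1, mean 16 CPM), and the change was −2.44 (SE 0.49, edgeR adjusted p = 0.00309). In all, 10 Mup genes fell, by 1.99 to 3.12, but Mup genes are near-identical copies whose reads can be split between them, so the value of any single member is uncertain. Mup21 was not called (−0.23, edgeR adjusted p = 0.591). Several members of the Mup family are counted separately in the male-biased list. Outside that family, the complement genes C6, C8a, C8b and C9 fell by 0.80, 0.67, 1.2 and 0.82, and the growth factor receptor Egfr fell by 0.84. The pericentral and male-biased lists were lower in the same mice as the hepatocyte marker sum given above. The ranges of that sum lay close, with 126254 CPM the lowest in Vec and 125860 CPM the highest in shRNA+BBR. Of the 10 hepatocyte markers, 2 were called lower and 0 higher. The part of that sum in these results was not tested.

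**Figure D2:**
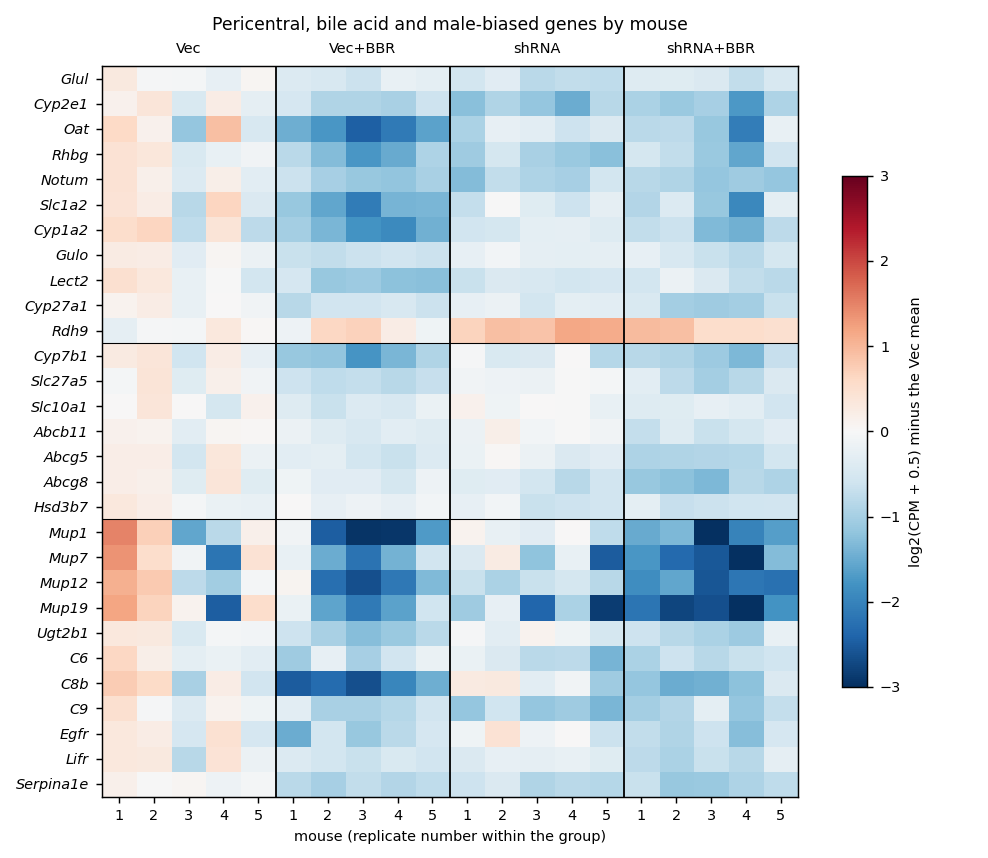
Level of called pericentral (top block), bile acid (middle block) and male-biased (bottom block) genes in each mouse, as log2(CPM + 0.5) minus the Vec mean (colour, saturating at −3 and 3). The shRNA+BBR columns were below the Vec mean for nearly all genes shown, with Rdh9 above it, and Vec replicates 3 and 4 were below the other Vec mice for several Mup genes.

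Drug metabolism genes under the receptors CAR and PXR had 17 of 59 lower and 3 higher (median −0.38). The number higher was 5 without Vec replicate 3, 1 without any of Vec replicates 2 and 4 and shRNA+BBR replicates 2, 4 and 5, and 0 with the 10 libraries alone. The number lower was 9 when only the 10 libraries were fitted, 11 without Vec replicate 2, 10 without shRNA+BBR replicate 3 and 11 without shRNA+BBR replicate 4. Cyp2c54 was at 1064, 1218, 328, 947 and 697 CPM in Vec and at 300, 163, 128, 84.4 and 423 CPM in shRNA+BBR. Only Vec replicate 3 lay inside the shRNA+BBR range, and the change was −1.95 beside −3.72 with BBR alone. Cyp2c37 and Cyp2c50 fell by 1.63 and 1.2. Glutathione transferase genes Gsta1 and Gstm3 rose by 0.94 and 1.11. Of the 26 genes of this list lower with BBR alone, 14 stayed lower. The Cyp2c, Ugt1a and Sult2a families hold near-identical copies, and reads may be shared among their members.

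**Figure D3:**
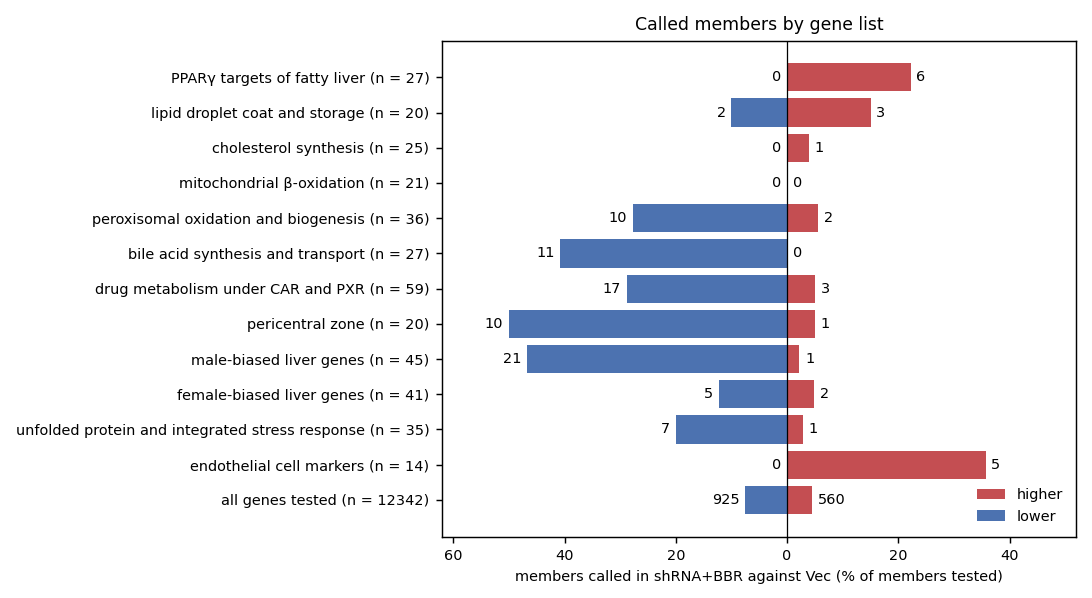
Share of tested members of each gene list called lower (blue, to the left) or higher (red, to the right) in shRNA+BBR against Vec, in percent, with the number of genes at each bar and all genes tested in the bottom row. Pericentral (10 of 20), male-biased (21 of 45) and bile acid genes (11 of 27) lay mostly on the lower side. Some lists share called members. Cyp27a1 is pericentral and bile acid, Cyp7b1 is bile acid and male-biased, and Cyp1a2 and Cyp2e1 are pericentral and drug metabolism genes.

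Over all 12342 genes, 560 rose and 925 fell in shRNA+BBR against Vec, together 12% of those tested. An unadjusted p under 0.05 was reached by 1479 higher and 1861 lower genes. Of the called genes, 140 rose and 68 fell at least 2-fold. The number higher was 321 without Vec replicate 2 and 362 without shRNA+BBR replicate 4, and the number lower was 528 without Vec replicate 2 and 593 without shRNA+BBR replicate 3. When only the 10 compared libraries were fitted, 199 were higher and 342 lower. The 2 groups did not overlap for 823 genes (6.67%), 309 higher (2.5%) and 514 lower (4.16%), of which 250 and 449 were called.

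Among called genes without overlap and with a mean count of at least 50 over the 10 mice, Gipc2 rose most. That mean pools both groups, so a gene low in Vec can pass through its level in shRNA+BBR. Vec means were 0.988 CPM for Gipc2, 1.297 for Mtmr11, 1.435 for Defb1 and 1.507 for Arhgap27. Gipc2, a PDZ-domain scaffold protein, was at 0.301, 1.03, 2.50, 0.355 and 0.754 CPM in Vec and at 6.88, 8.49, 4.55, 13.0 and 4.40 CPM in shRNA+BBR. The change was 2.91 (SE 0.44, edgeR adjusted p = 0.000415), beside 2.27 with BBR and 2.0 with the knockdown. Smoc2, a secreted matrix protein (chr17:14279506-14404790), was at 3.06, 2.64, 2.75, 1.93 and 2.87 CPM in Vec and at 24.8, 16.8, 6.39, 17.8 and 21.2 CPM in shRNA+BBR. All shRNA+BBR mice were above all Vec mice (2.71, SE 0.29, edgeR adjusted p = 5.68e-05). They were below the shRNA mice, which stood at 31.6 to 59.0 CPM. Wfdc2, a secreted protease inhibitor, rose by 2.46, the basement membrane anchor Lad1 by 1.82, the antimicrobial peptide Defb1 by 1.75, the GTPase-activating protein Arhgap27 by 1.74 and the zinc transporter Slc39a5 by 1.44. Mtmr11, Cystm1 and Rasl10b completed the 10 largest, at 1.69, 1.55 and 1.45. Lad1 was not called with BBR alone (−0.24) and was 1.86 with the knockdown alone. Arhgap27 showed the reverse arrangement, at 2.63 with BBR and −0.12 with the knockdown.

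A large decrease was seen in Sult2a7, a sulfotransferase of steroids and bile acids, at 146, 149, 17.9, 119 and 64.8 CPM in Vec and at 15.4, 10.1, 2.56, 2.65 and 17.2 CPM in shRNA+BBR. Vec replicate 3 was the lowest Vec mouse and lay just above the highest shRNA+BBR mouse (−3.38, SE 0.54, edgeR adjusted p = 0.000551). Pdia4, a protein disulfide isomerase of the endoplasmic reticulum, was at 133, 147, 110, 95.4 and 115 CPM in Vec and at 46.9, 44.0, 79.8, 54.5 and 40 CPM in shRNA+BBR, a decrease of 1.18 without overlap beside 0.04 with BBR and −1.91 with the knockdown. Other large decreases without overlap were in Mup12, the vasopressin receptor Avpr1a (−1.53), Farp2 (−1.32), Syt1 (−1.27), Kyat1 (−1.3), the fructose transporter Slc2a5 (−1.22) and Sult2a8 (−1.17).

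**Figure D4:**
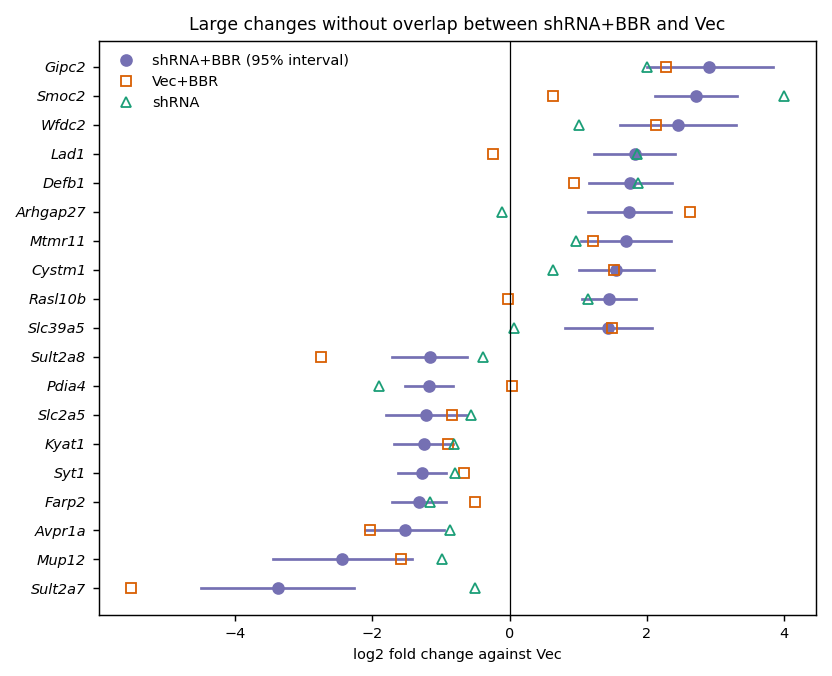
The 10 largest increases and 9 large decreases without overlap between shRNA+BBR and Vec: log2 fold change of shRNA+BBR with its 95% interval (filled circles and lines), of Vec+BBR (squares) and of shRNA (triangles), all against the same 5 Vec mice. Sult2a7 stood at −3.38 with both, −5.51 with BBR and −0.50 with the knockdown, while Lad1 stood at 1.82, −0.24 and 1.86.

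Genes changed by BBR alone were followed into the combined treatment. In Vec+BBR against Vec 1908 genes were called (15.5%), 936 higher (7.58%) and 972 lower (7.88%), and of these 613 (32.1%) stayed changed in the same direction, 262 higher and 351 lower. Another 760 (39.8%) were back at the Vec level, 349 that BBR had raised and 411 that it had lowered. For 527 the interval was too wide for either statement, and 8 were called in the opposite direction. The same rule was met by 55.4% of all genes and by 58.3% of those not called with BBR alone, so the share back at the Vec level was below that of the genes not called. The comparisons of Vec+BBR and of shRNA+BBR with Vec use the same Vec mice, so a Vec mouse that stands apart moves both the same way. The number still changed was 350 without Vec replicate 1, 299 without Vec replicate 2 and 999 without Vec replicate 3. The number back was 461 without Vec replicate 1, 462 without Vec replicate 2, 457 without Vec+BBR replicate 2 and 429 without Vec+BBR replicate 4, and 236 under a bound narrower than 1.5-fold.

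Ugt1a9, a glucuronidation enzyme, was the largest BBR change among those back at the Vec level. It was at 124, 166, 243, 85.0 and 214 CPM in Vec, at 441, 332, 338, 364 and 453 CPM in Vec+BBR and at 156, 153, 121, 169 and 162 CPM in shRNA+BBR. All shRNA+BBR mice lay inside the Vec range and below the lowest Vec+BBR mouse, and the change from Vec was −0.13 (interval −0.58 to 0.32). The knockdown alone lowered Ugt1a9, to 43.5 to 84.9 CPM in shRNA (−1.355). BBR still raised it within the knockdown arm, by 1.225 (edgeR adjusted p = 0.00366), beside 1.211 in Vec mice. Car14, a membrane carbonic anhydrase, was at 57.3, 49.7, 30.2, 36.3 and 32.7 CPM in Vec and at 35.2, 46.3, 32.7, 31.2 and 48.3 CPM in shRNA+BBR, overlapping throughout (−0.09, interval −0.47 to 0.29), beside 11.2 to 22.4 CPM in Vec+BBR. Acad12, an acyl-CoA dehydrogenase, Nat8f1 and the netrin receptor Unc5b followed, with changes of 0.04, −0.21 and 0.04 in shRNA+BBR and 1.19, −1.08 and 1.04 with BBR alone. At the other end, the BBR changes that persisted were large for Sult2a7, Sdcbp2, 5330417C22Rik and Cyp2c54. In 5330417C22Rik the change was 3.97 with BBR and 2.67 with both. Sdcbp2, a syntenin-related PDZ protein, was 2.33 with both (SE 0.70, edgeR adjusted p = 0.033). Its call was lost in DESeq2 (adjusted p = 0.0673), with the 10 libraries alone (0.152), and when any of Vec replicates 1, 2, 4 and 5 or shRNA+BBR replicates 3 and 4 was left out (1.95 to 2.21). Without Vec replicate 3 its change was 4.41.

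Genes changed by the knockdown alone divided similarly. In shRNA against Vec 1628 were called (13.2%), 652 higher (5.28%) and 976 lower (7.91%), and of these 550 (33.8%) stayed changed, 180 higher and 370 lower, and 768 (47.2%) were back at the Vec level. A further 304 met neither rule and 6 changed the other way. The 768 had a median knockdown change of 0.40 where raised and −0.44 where lowered, within the 1.5-fold bound. Of them, 408 were called between shRNA+BBR and shRNA in the direction opposite to the knockdown change. The number still changed was 365 without Vec replicate 1 and 304 without Vec replicate 2. The number back was 494 without Vec replicate 3, 1185 without Vec replicate 4 and 424 without shRNA replicate 4. Vnn1, a pantetheinase induced by fatty acids, was at 65.9, 73.6, 136, 55.7 and 124 CPM in Vec, at 27.8 to 44.5 CPM in shRNA and at 95.7, 84.4, 95.8, 78.7 and 80.1 CPM in shRNA+BBR. The shRNA+BBR mice were inside the Vec range and above every shRNA mouse (−0.06, interval −0.47 to 0.34). BBR alone raised Vnn1 by 0.81, to 135.5 to 185.6 CPM. Against Vec+BBR, shRNA+BBR stood at −0.87 (edgeR adjusted p = 0.0094). Il1rn, the interleukin-1 receptor antagonist, was at 4.96, 5.46, 5.00, 3.85 and 6.41 CPM in Vec and at 4.75, 4.97, 7.06, 4.79 and 3.72 CPM in shRNA+BBR (−0.02, interval −0.39 to 0.34), beside 1.71 to 2.90 CPM in shRNA. The DNA repair gene Xrcc4 stood at −0.22, beside −1.08 with the knockdown alone. The knockdown changes that persisted were largest for Smoc2, Mup17, Pparg, Depp1 and Gipc2. Depp1 was −1.55 (edgeR adjusted p = 0.0352) and Mup17 −2.46 (edgeR adjusted p = 0.0342). Those calls were lost with the 10 libraries alone (edgeR adjusted p = 0.0612 for Depp1 and 0.0619 for Mup17). Depp1 was also lost without Vec replicate 1, 2 or 3 or shRNA+BBR replicate 2, 3, 4 or 5. Mup17 was also lost in limma-voom (adjusted p = 0.312) and in edgeR with a replicate block. Its call was likewise lost without Vec replicate 1, 2 or 5 or shRNA+BBR replicate 1, 2, 3 or 4. In Vec replicate 4 Mup17 was at 1.42 CPM, below every shRNA+BBR mouse (10.1 to 20.7 CPM).

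**Figure D5:**
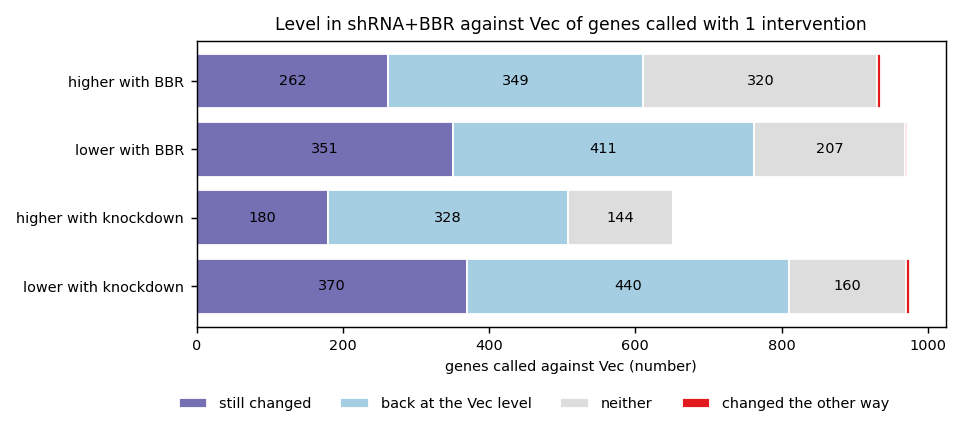
Number of genes called with BBR alone or with the knockdown alone, by direction, split by their level in shRNA+BBR against Vec: still changed, back at the Vec level, neither, or changed the other way (red slivers of 5, 3, 0 and 6 genes from top to bottom). Of the genes BBR raised, 262 were still higher and 349 were back.

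A small set was called on opposite sides of the control level. The 6 genes lower with the knockdown and higher with both were Cidea, Mogat1, Gprc5b (1.48), Lgals1 (1.15), Kmt5a (0.44) and Rassf3 (0.28). Lgals1, the lectin galectin-1, was at 16, 23, 79.5, 10.2 and 43.7 CPM in Vec and at 69.9, 81.6, 97.9, 86.8 and 45.8 CPM in shRNA+BBR. Vec replicate 3 was again the Vec mouse inside the shRNA+BBR range. The 8 genes opposite to BBR alone had the sign of the knockdown. Tuba8, an α-tubulin, Cry1 and Akr1b7 were lower with BBR and higher with both (1.3, 0.52 and 0.76). Laptm4b, Erlin1, Nfkbiz, Tex2 and the tight junction gene Cldn2 were higher with BBR and lower with both (−0.32, −0.34, −0.52, −0.44 and −0.43).

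Another 473 of the 1485 called genes (167 higher, 306 lower) were called against Vec only when both interventions were combined, and 345 of these had the same sign in both single interventions. These comparisons all use the same Vec mice, so a shared sign is partly built in. The share with the same sign over all genes was not counted. A direct test of whether the BBR change differed between Vec and shRNA mice called 0 of the 473, and 18 of all 12342 genes (0.146%). At an unadjusted p under 0.05, 12 of the 473 were higher and 52 lower in that test, beside 1208 higher and 1073 lower of all genes (18.5%). Among the 157 of these without overlap and with a mean count of at least 50, the largest changes were in Htra3 (1.19), a secreted protease, Fam131c (1.16), Fst (1.15), the activin antagonist follistatin, 1810046K07Rik (−1.13), Srsf5 (−1.06), a splicing factor, and Id1 (1.04), a target of BMP signalling. These 6 were named after their values were seen.

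Markers of other liver cells moved with the comparison as follows. Of 14 endothelial markers 5 rose and 0 fell (median 0.42), and without Vec replicate 5 the number was 8. Their summed level was 206 to 269 CPM in Vec and 258 to 347 CPM in shRNA+BBR. Lyve1, a hyaluronan receptor of sinusoidal endothelium, was at 5.11, 4.95, 7.26, 4.31 and 8.48 CPM in Vec and at 17.3, 11.0, 16.8, 14.6 and 18.1 CPM in shRNA+BBR, without overlap (1.36, SE 0.22, edgeR adjusted p = 0.000599). Gpr182, Tek, Fcgr2b and Pecam1 rose by 0.62, 0.51, 0.50 and 0.45. Stellate and fibroblast markers had 2 of 17 higher (Postn 0.97 and Vim 0.61) or 5 without Vec replicate 3, with sums of 276 to 504 CPM in Vec and 459 to 656 CPM in shRNA+BBR. The number higher was 1 without Vec replicate 2 or shRNA+BBR replicate 4, and 0 with the 10 libraries alone. Macrophage markers had 2 of 22 higher (Cd9 0.77 and Spp1 0.76), with sums of 348 to 735 and 554 to 770 CPM. That number was 0 without Vec replicate 1, 2, 4 or 5, and 0 to 3 over all alternatives. Adipocyte markers summed to 0.101 to 1.03 CPM in Vec and 0.959 to 5.54 CPM in shRNA+BBR. Lep and Plin1, which define that cell type, were at 0 in all 10 libraries, and its 1 tested marker, Cfd, is also counted among the PPARγ targets. Cholangiocyte markers had 1 of 8 higher, which was Spp1, also counted among the macrophage markers. Lymphocyte markers had 1 of 9 higher, and erythroid, neutrophil and pancreas markers 0 of 6, 2 and 1.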

How the data were processed

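RNA was poly(A)-selected and sequenced from the liver of 20 mice, 5 per group. The authors deposited 1 table per library, holding expected counts per gene (estimated, not always whole) and FPKM. The build was mm10 per the submitters' processing notes, and the aligner, counter and annotation are not given in the sources used here. The deposited expected counts were rounded to whole numbers, and FPKM was not tested. Genes passed edgeR's filterByExpr (minimum count 10, minimum total 15), which left 12342 of 22298. All 20 libraries were fitted in 1 model with the 4 groups as coefficients (R 4.3.3, edgeR 4.0.16, TMM factors 0.873 to 1.14, quasi-likelihood test, Benjamini-Hochberg threshold 0.05), giving contrasts of each group with Vec, the remaining pairs and the interaction. Standard errors and 95% intervals came from that fit. The code was tested on simulated data. Alternatives were DESeq2 1.42.0, limma-voom (limma 3.58.1), RLE size factors, other filters, a replicate block, the 10 libraries alone and leaving out each library.

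Named genes were Pparg, the 10 largest increases and decreases among called genes with a mean count of at least 50 and no overlap between groups, and, for BBR and for the knockdown, the 5 largest single-intervention changes that stayed and the 5 largest that were back at the Vec level. Some genes that the rules chose are not reported here. Others are members of gene lists or are said to be chosen later. The members and lists were chosen with earlier results of these data known. The effect of the alternatives on list counts was added after seeing the data. No 2 libraries of a group agreed within sampling noise (lowest chi-square per gene 15.1 over 40 pairs). Of the gene identifiers, 22255 matched GENCODE M21. The heat map used a pseudocount of 0.5.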

Additional observations from a re-analysis of the deposited data

Results flagged for a closer look

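Among the genes named above, 1 mouse stood far from the other 4 of its group in 6 of 66 groups examined by Dixon's ratio (critical value 0.71), where chance flags about 1 in 20 groups. Lad1 in Vec replicate 2 was at 1.93 CPM, below 4.14 to 4.56 CPM in the other Vec mice. Cystm1 was at 5.59 CPM in Vec replicate 3, above 1.77 to 2.51 CPM, and at 12.4 CPM in shRNA+BBR replicate 4, above 6.69 to 7.83 CPM. Rasl10b in Vec replicate 5 was at 10.4 CPM, above 4.87 to 6.21 CPM. Farp2 in shRNA+BBR replicate 2 was at 4.72 CPM, below 8.19 to 9.05 CPM. Sdcbp2 in Vec replicate 3 was at 3.78 CPM, above 0 to 0.659 CPM.

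For 3 of the named genes the BBR change differed between shRNA and Vec mice by the interaction test (edgeR, adjusted over all genes). The BBR change of Smoc2 was lower in shRNA mice by a log2 difference of −1.92 (adjusted p = 0.0473), being 0.64 in Vec mice and −1.28 in shRNA mice. That of 5330417C22Rik was lower in shRNA mice by −2.64 (adjusted p = 0.0377), at 3.97 and 1.33. That of Sult2a8 was higher by 1.98 (adjusted p = 0.0328), at −2.75 and −0.78.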

How the results depend on the processing

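Of 860 recomputed values of the 32 named genes other than Pparg, 818 kept their direction and call. In 26, all of Sdcbp2, Mup17 or Depp1, the call was lost, and in 16 the sign changed, all for genes at the Vec level. In limma-voom Unc5b was −0.028 and Vnn1 0.022. Leaving out each library in turn gave −0.10 to 0.23 for Acad12, −0.18 to 0.066 for Car14, −0.17 to 0.071 for Il1rn, −0.30 to 0.050 for Ugt1a9, −0.24 to 0.18 for Unc5b and −0.20 to 0.13 for Vnn1. It gave −1.06 to −0.66 for Pparg, 321 to 824 genes higher, 528 to 1068 lower, 299 to 999 BBR genes still changed, 429 to 881 back, 304 to 582 knockdown genes still changed and 424 to 1185 back. The Pparg call was lost with a replicate block (−0.83, adjusted p = 0.0583) and with the 10 libraries alone (−0.83), where 199 genes were higher and 342 lower. Over all alternatives the adjusted p of Pparg ran from 0.0175 to 0.138. The replicate numbers did not pair the mice (correlations of same-numbered mice −0.30 to 0.26 over all pairs of groups, and most mice did not correlate best with their own number), and the block gave 498 higher and 821 lower genes. An unadjusted p gave 1479 and 1861, a 2-fold minimum 140 and 68, DESeq2 725 and 1089, and limma-voom 543 and 881. The narrower of the other bounds gave 236 BBR and 277 knockdown genes back. The cause of these shifts was not tested, apart from the fewer libraries or tighter rule of an alternative itself. Genes near 0.193 CPM rest on 3 counts or fewer and were limited by depth.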

Other observations

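Clock genes moved in both directions. Of 19 tested, 3 rose and 4 fell in shRNA+BBR against Vec (median −0.34). The activators Arntl and Clock rose by 1.07 and 0.56 and the repressor Cry1 by 0.52, whereas Dbp, Nr1d1, Per3 and Tef fell by 1.5, 1.42, 0.87 and 0.50. Dbp was at 89.8, 91.8, 35.1, 33.4 and 28.6 CPM in Vec and at 17, 29.5, 17.6, 17.6 and 16.6 CPM in shRNA+BBR, so Vec replicates 1 and 2 stood far above the other Vec mice and shRNA+BBR replicate 2 lay just above the lowest of them. Nr1d1 was at 26.1, 20.8, 6.82, 12.9 and 14.6 CPM in Vec and at 6.35, 7.21, 6.16, 3.97 and 6.50 CPM in shRNA+BBR. The time of day of collection was not used here, and its part in these values was not tested. The number lower was 7 without shRNA+BBR replicate 5, and the number higher was 1 without Vec replicate 1, Vec replicate 2, shRNA+BBR replicate 1 or shRNA+BBR replicate 5. In the unfolded protein and integrated stress response, 7 of 35 fell (Pdia4, Sdf2l1, Dnajb11, Herpud1, Aars, Sel1l and Edem1, by 0.26 to 1.18) and Creld2 rose by 0.41. The number lower was 4 without Vec replicate 2, shRNA+BBR replicate 2, 3 or 4. In gluconeogenesis and glycogen metabolism 6 of 27 fell, among them Fbp1 (−0.50), Foxo1 (−0.53) and the glucagon receptor Gcgr (−0.37). The number lower there was 2 without Vec replicate 2 and 3 without shRNA+BBR replicate 2, 3 or 4. The cell cycle inhibitor Cdkn1a rose by 1.03, beside 1.29 with the knockdown alone.

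The promoters of RefSeq (GRCm38.p6, 250 bases before to 50 after the gene start, 1 per gene) were searched on both strands for AGGTCANAGGTCA, the direct repeat that PPAR and RXR bind. Of 27025 promoters 12 held it (0.0444%), and of the 9801 tested genes matched by symbol 4 did. Among 411 matched genes that rose it was found in 1, Bco1, and among 746 that fell in 0. The single AGGTCA, which every full repeat also contains, was found in 12.4% of those that rose, 13.7% of those that fell and 12.8% of all matched tested genes. Bco1, which cleaves β-carotene, is shown because it held the only match among called genes, and it was chosen after its values were seen. The plus strand is printed for a window of 53 bases (chr8:117095789-117095841). Capitals mark the match, which reads AGGTCANAGGTCA on the opposite strand, 56 to 44 bases before the gene start.
Bco1: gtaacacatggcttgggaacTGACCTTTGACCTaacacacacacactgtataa
Bco1 was at 2.61, 1.41, 2.11, 1.57 and 2.03 CPM in Vec and at 4.22, 4.48, 2.70, 4.84 and 4.89 CPM in shRNA+BBR, without overlap (1.11, SE 0.20, edgeR adjusted p = 0.00127), beside 1.39 with the knockdown and 0.35 with BBR. A match describes letters in this window and does not show a bound site.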
